A study of Rattus norvegicus with 15 samples.

Results

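Lysosomal hydrolases and lysosomal membrane proteins were examined in epididymal fat, the fat pad beside the epididymis, of diet-induced obese and lean rats. The list held 37 genes: 11 proteases, 8 lipid enzymes and lipid transfer proteins, 9 sugar enzymes, 6 membrane proteins, and a group of 3 made of 2 acid phosphatases and Pld3. A gene was read from its brightest probe set, chosen by the mean log2 signal over all 15 arrays, among those whose platform annotation named that gene and no other, so high signals of the genes are no finding. Of the 37 genes, 36 had such a probe set, out of 14217 genes on the array, and Npc1, which exports cholesterol from lysosomes, had none. All 36 passed the filter on dim signals, which kept 10514 genes. The list was drawn up with the obese against lean results of these arrays already known. The counts of genes that pass a threshold and the median differences thus describe the list and are no independent evidence about it.

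All rats were male Long-Evans rats of a private colony, fed when they were killed, at an age of 26 weeks, per the series' design text. The 7 obese rats had eaten a diet high in fat and sucrose from weaning, and the 8 lean rats had eaten regular chow from weaning. Diet and body fat thus changed together and cannot be told apart. Total RNA of each rat went on 1 Affymetrix RAE230_2 array, and rats are called here by group and by the number in their label.

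Lysosomes are acidic compartments in which hydrolases take apart proteins, lipids, sugar chains and nucleic acids delivered by endocytosis, phagocytosis and autophagy. Most of the soluble enzymes are guided there by mannose 6-phosphate tags, while heavily glycosylated membrane proteins such as Lamp1 and Lamp2 line the compartment. In fat, lysosomes are found in adipocytes and are abundant in macrophages, which take up lipid with them. Many lysosomal genes carry an E-box in their promoters that is bound by Tfeb, Tfe3 and Mitf, transcription factors of lysosome biogenesis.

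The E-box CACGTG and its extension TCACGTGA, both palindromes that read alike on both strands, were searched in RefSeq promoters of build GRCr8, each 300 bases long, from 250 before to 50 after the gene's start. Every TCACGTGA holds a CACGTG. Of the 37 genes, 32 had an entry, and Ctsb, Hexa, Psap, Ppt1 and Asah1 had none. CACGTG was found in 6 of the 32 (18.8%), namely Cd63, Ctsd, Gaa, Glb1, Lamp1 and Plbd1, and in 6.42% of all 33469 promoters. TCACGTGA was found in Ctsd and Lamp1, 2 of 32 (6.25%), and in 0.777% of all promoters. Windows with the E-box in capitals show how often it recurs in single promoters, and all are written 5′ to 3′ on the gene's own strand. Those of Ctsd (chr1:206968822-206969021, minus strand) and Lamp1 (chr16:83075064-83075263, minus strand) cover the 200 bases before the start. Those of Glb1 (chr8:122963603-122963637, plus strand), Gaa (chr10:105028273-105028307, plus strand) and Cd63 (chr7:1921939-1921973, plus strand) are 35 bases around the E-box.
Ctsd: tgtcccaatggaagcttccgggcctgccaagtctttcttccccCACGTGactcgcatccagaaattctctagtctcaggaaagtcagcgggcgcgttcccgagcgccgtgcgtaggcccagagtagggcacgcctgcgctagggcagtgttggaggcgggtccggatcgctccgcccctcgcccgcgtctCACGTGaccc
Lamp1: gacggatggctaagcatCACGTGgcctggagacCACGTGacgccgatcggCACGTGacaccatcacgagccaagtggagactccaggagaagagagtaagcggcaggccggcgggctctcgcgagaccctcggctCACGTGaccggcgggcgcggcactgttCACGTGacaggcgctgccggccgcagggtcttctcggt
Glb1: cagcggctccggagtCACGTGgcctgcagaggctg
Gaa: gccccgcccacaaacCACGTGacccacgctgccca
Cd63: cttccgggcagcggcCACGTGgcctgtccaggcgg
The E-box of Ctsd began 157 and 10 bases before the start, and Lamp1 held 5 copies between 183 and 38 bases before it. A match is a description of these letters and not a bound site.

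The array of obese rat 1 and that of lean rat 7 were near-identical although their labels put them in different groups. Their log2 signals correlated at 0.986 over the probe sets kept, against 0.960 for the next most alike pair of arrays. Over the 36 lysosomal genes the median size of their log2 difference was 0.05, and it was under 0.5 for 35 of them. The exception was Ctsk, cathepsin K, a collagen-degrading cysteine protease, which read 394.2 in obese rat 1 and 2929.1 in lean rat 7, a log2 difference of -2.67. Its probe set differed more between these 2 arrays than any other of the 18625 kept. For this reason each comparison was run with all 15 arrays and again on 13 arrays, without obese rat 1 and lean rat 7 (6 obese and 7 lean rats), and the signals below are those of the 13 arrays unless stated.

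In the 13 arrays 9 of the 36 lysosomal genes passed an adjusted p of 0.05 in limma's moderated test with Benjamini-Hochberg adjustment over all 18625 probe sets, and all 9 were higher in the obese rats. They were the proteases Ctsa, Ctsz, Ctsd and Dpp7, the lipid enzymes Lipa and Plbd1, the sugar enzyme Fuca1, the membrane protein Laptm5, and Pld3. Of all 10514 genes, 0.866% passed higher in the obese rats. The log2 difference, taken as obese minus lean on log2(signal + 79.9), was above 0 for 33 of the 36 genes, against 46.7% of all genes. Its median was 0.36 over the 36 genes and -0.02 over all genes. For 5 genes, Ctsa, Ctsz, Lipa, Plbd1 and Fuca1, every obese rat lay above every lean rat, which held for 1.15% of all genes.

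With all 15 arrays none of the 36 genes passed limma's adjusted threshold, and neither did any of the 18625 probe sets (0% of genes higher in the obese rats). At an unadjusted p under 0.05, limma had 15 of the 36 higher in the obese rats with 15 arrays, against 7.75% of all genes, and 19 with 13 arrays, against 8.54%. The log2 difference was above 0 for 34 of the 36 with 15 arrays (46.9% of all genes), with a median of 0.30 against -0.01 over all genes. None of the 36 had groups that were apart over the 15 rats (0.124% of all genes), and obese rat 1 lay within the lean range for each of the 9 genes.

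**Figure D1:**
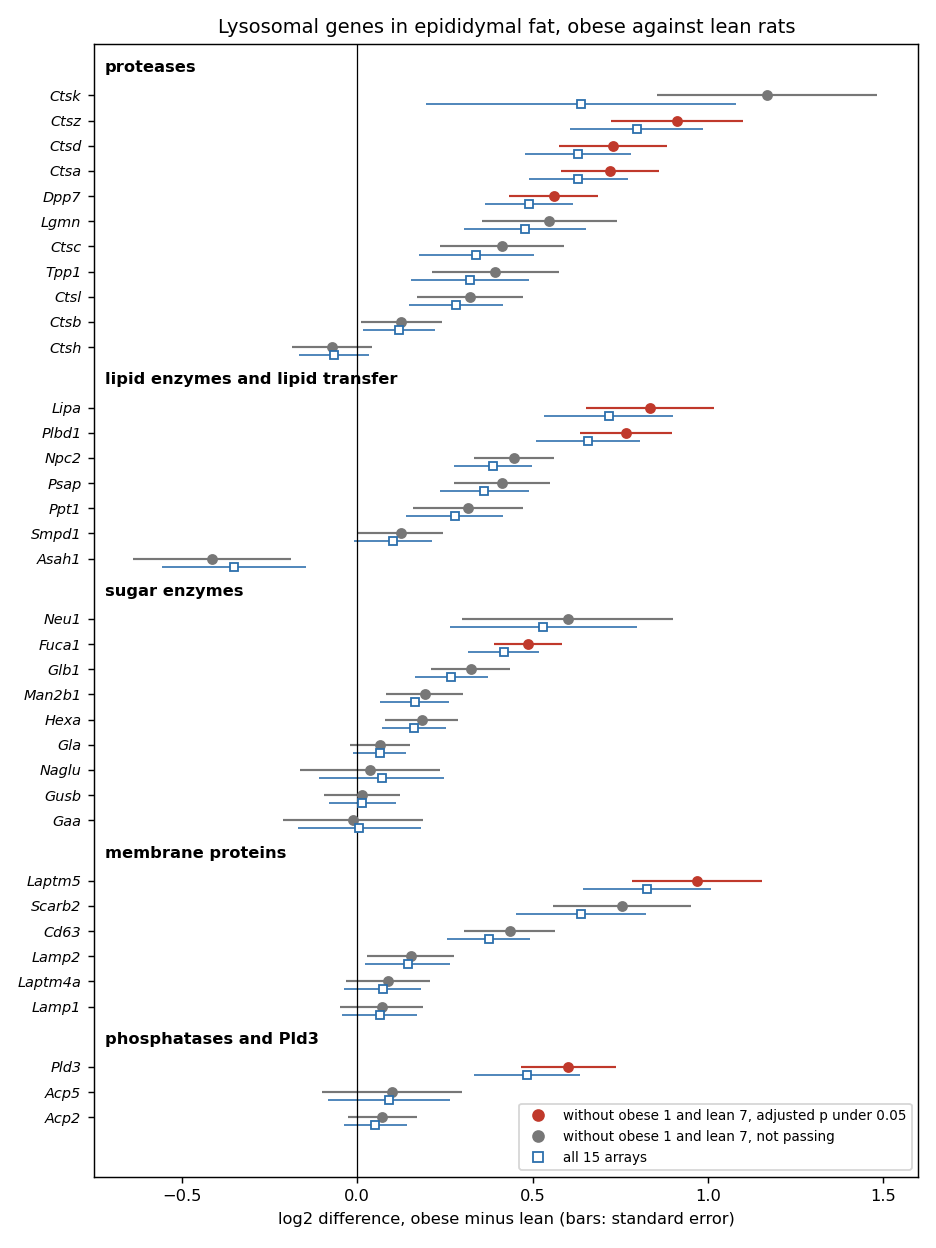
Log2 difference, obese minus lean, of the 36 lysosomal genes by class, with standard errors as bars: circles for the 13 arrays (red where the limma adjusted p was under 0.05) and open squares for all 15 arrays. The red circles lie between 0.49 (Fuca1) and 0.97 (Laptm5), and all but 3 circles lie above 0.

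Of the proteases, the largest class, 4 of 11 genes passed (0.866% of all genes passed higher, a share that also belongs beside the class counts below). The classes were not compared by a test. The proteases had a median log2 difference of 0.55 in the 13 arrays and 0.48 in all 15. They include cathepsins of the aspartic and cysteine classes and exopeptidases that trim peptides from one end.

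Ctsa, cathepsin A, is a serine carboxypeptidase that also protects the enzymes encoded by Glb1 and Neu1 in a complex. Its signal had a lowest, median and highest value of 13660.4, 17083.5 and 26193.3 in the obese rats and of 9069.3, 10508.9 and 12811.6 in the lean rats. The groups did not overlap, with obese rat 6 well above the other obese rats. The log2 difference was 0.72 ± 0.14 (SE, 6 obese and 7 lean rats), a 1.65-fold higher level, with a limma adjusted p of 0.0305.

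Ctsz, cathepsin Z, is a cysteine carboxypeptidase. Obese rats had a lowest, median and highest signal of 3486.6, 3692.45 and 7054.2, and lean rats of 1275.1, 2232.1 and 2839.3. There was no overlap, obese rat 6 was the highest and lean rat 8 the lowest. Ctsz rose by 0.91 ± 0.19 on the log2 scale (SE), 1.88-fold, with a limma adjusted p of 0.0370.

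Ctsd, cathepsin D, the main aspartic protease of lysosomes, ranged from 11285.0 over a median of 14363.1 to 22233.7 in obese rats and from 7238.3 over 8734.0 to 11423.0 in lean rats. Only the lowest obese rat, number 2, lay below the highest lean rat, number 4. The log2 difference of 0.73 ± 0.15 (SE) passed with a limma adjusted p of 0.0419.

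Dpp7, an exopeptidase that removes dipeptides, read 3936.6, 4642.95 and 6079.3 at its lowest, median and highest in obese rats and 2608.3, 3220.6 and 3995.7 in lean rats. Here too 1 obese rat, number 8, fell below the highest lean rat, and obese rat 3 rather than obese rat 6 was the highest. Dpp7 was higher by 0.56 ± 0.13 (SE) on the log2 scale, with a limma adjusted p of 0.0484.

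Ctsh, cathepsin H, an aminopeptidase, had the lowest log2 difference of the proteases at -0.07 (limma adjusted p 0.784). Its signal ran from 19138.3 over 21157.3 to 25409.1 in obese rats and from 20228.6 over 20864.3 to 30104.0 in lean rats. The groups lay over each other, and the highest rat was a lean one, number 2. The sign turned to 0.04 when arrays were centred on their medians.

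Among the other proteases Ctsk had the largest log2 difference of all 36 genes in the 13 arrays, 1.17 ± 0.31 (SE), without passing (limma adjusted p 0.0845). Ctsk is described here after its values were seen. Obese rats ran from 1886.6 over 3623.05 to 4498.2 and lean rats from 631.9 over 1573.4 to 2994.5. Of the 6 obese rats 5 lay above the highest lean rat. With all 15 arrays, and with it the reading of 394.2 in obese rat 1, the log2 difference was 0.64 and the adjusted p 0.506. The log2 differences of Lgmn, the asparagine-specific protease legumain, Ctsc, which activates proteases of immune cells, Tpp1, Ctsl and Ctsb were 0.55, 0.41, 0.39, 0.32 and 0.13, and none passed.

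**Figure D2:**
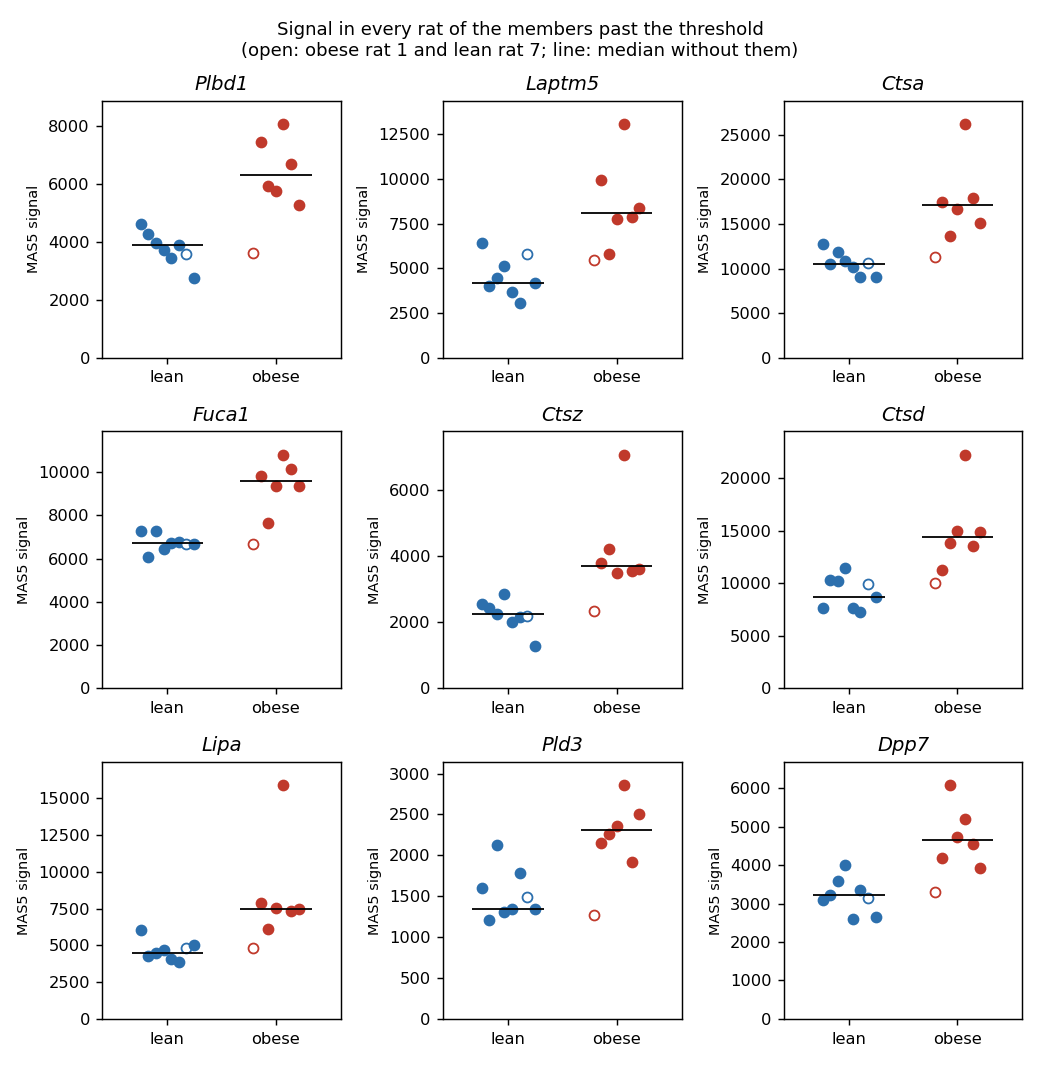
MAS5 signal, on a linear axis from 0, of the 9 genes that passed in the 13 arrays, 1 point per rat, with lean rats in blue, obese rats in red, open circles for obese rat 1 and lean rat 7, and a line at each group's median without those 2 rats. Obese rat 1 lies among the lean rats in each panel, for example at 3616.9 for Plbd1, where the other obese rats start at 5289.2.

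Lipid enzymes and lipid transfer proteins had 2 of 7 genes that passed and a median log2 difference of 0.41 in the 13 arrays and 0.36 in all 15. The class covers enzymes that split neutral lipids, phospholipids and sphingolipids, and the small proteins that present lipids to them.

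Plbd1, a phospholipase B-like protein, had the smallest limma adjusted p of the 36 genes, 0.0185. Its lowest, median and highest signals were 5289.2, 6300.6 and 8064.2 in obese rats and 2752.0, 3888.6 and 4605.3 in lean rats. The groups were apart, and here the obese rats were spread more evenly than for Ctsz. Plbd1 was 1.70-fold higher in obese rats (log2 difference 0.77 ± 0.13, SE). Its second probe set, with dimmer signals, gave 0.03 (adjusted p 0.975).

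Lipa, the lysosomal acid lipase that frees cholesterol and fatty acids from lipids taken up by the cell, ran from 6082.3 over 7492.05 to 15875.7 in obese rats. Lean rats ran from 3890.1 over 4463.8 to 6043.5. The groups did not overlap, but the lowest obese rat, number 3, lay close to lean rat 1, and obese rat 6 stood far above all others. The log2 difference was 0.83 ± 0.18 (SE, limma adjusted p 0.0453).

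Npc2, which hands cholesterol from lipoproteins to Npc1, did not pass, at a log2 difference of 0.45 ± 0.11 (SE, limma adjusted p 0.0734). Its signals were 19689.8, 22359.8 and 30752.9 in obese rats (lowest, median and highest) and 15066.0, 15943.3 and 19904.8 in lean rats. Only obese rat 8 reached down into the range of the lean rats.

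Psap, the precursor of the saposins, which activate sphingolipid hydrolases, read 20516.7, 25346.15 and 34935.6 in obese rats and 16471.1, 18926.5 and 24006.4 in lean rats. The ranges overlapped, with 3 of 6 obese rats above the highest lean rat. The log2 difference of 0.41 had a limma adjusted p of 0.139. Ppt1, which removes fatty acids from proteins, and Smpd1, acid sphingomyelinase, stood at 0.32 and 0.12, and neither passed.

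Asah1, the acid ceramidase, had the opposite sign from the rest of its class, with a log2 difference of -0.41 ± 0.23 (SE) and a limma adjusted p of 0.353. Obese rats ran from 2161.5 over 3302.75 to 4328.3 and lean rats from 2415.4 over 4883.8 to 6665.0. The lean rats were spread widely around a higher median, and none of the 6 obese rats exceeded that median. A second, dimmer probe set of Asah1 gave 0.06, so its probe sets disagreed in sign.

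Sugar enzymes, which take sugars from glycoproteins, glycolipids and glycogen, had 1 of 9 genes that passed. Their median log2 difference was 0.18 in the 13 arrays and 0.16 in all 15. Fuca1, the lysosomal alpha-L-fucosidase, was the gene that passed. Its signals were 7629.3, 9610.45 and 10812.6 (lowest, median, highest) in obese rats and 6070.4, 6739.4 and 7283.1 in lean rats. The lean rats lay close together and every obese rat lay above them. The log2 difference was 0.49 ± 0.10 (SE), a 1.40-fold higher level with a limma adjusted p of 0.0318.

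Glb1, the lysosomal beta-galactosidase, had a log2 difference of 0.32 without passing (limma adjusted p 0.155). Its obese signals ran from 7398.6 over 8500.85 to 11079.2 and its lean signals from 5722.3 over 7034.5 to 7822.1. Of the 6 obese rats 5 lay above the highest lean rat.

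For Neu1, the lysosomal sialidase, the log2 difference was 0.60 ± 0.30 (SE, limma adjusted p 0.310). Obese rats read 810.6, 1012.35 and 1538.1 (lowest, median, highest) and lean rats 141.8, 797.7 and 1077.7. The lowest lean value came from rat 2 alone, and the other lean rats overlapped with most obese rats.

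Hexa, the alpha subunit of beta-hexosaminidase, had a log2 difference of 0.18 (limma adjusted p 0.366). It ran from 6194.2 over 7290.9 to 8232.0 in obese rats and from 5394.4 over 6748.0 to 7132.4 in lean rats. The groups overlapped, and 4 of 6 obese rats lay above the highest lean rat.

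Gaa, the glycogen-degrading acid alpha-glucosidase, had the lowest log2 difference of the class at -0.01 (limma adjusted p 0.984), and its sign turned to 0.10 when arrays were centred on their medians. Obese rats ran from 3600.0 over 4001.75 to 4721.2 and lean rats from 2568.4 over 3589.8 to 6977.1. The lean rats enclosed the obese range on both sides, with lean rats 4 and 5 the highest of all. Man2b1 (alpha-mannosidase), Gla (alpha-galactosidase A), Naglu, which degrades heparan sulfate, and Gusb (beta-glucuronidase) stood at 0.19, 0.06, 0.04 and 0.01, and none passed.

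Membrane proteins had 1 of 6 genes that passed, with a median log2 difference of 0.29 in the 13 arrays and 0.26 in all 15. Laptm5, a lysosomal membrane protein made mainly by blood-derived cells, was that gene. Obese rats read 5802.6, 8105.9 and 13061.7 (lowest, median, highest) and lean rats 3088.1, 4186.1 and 6417.9. The groups overlapped by 1 rat on each side, obese rat 3 and lean rat 1. Laptm5 rose by 0.97 ± 0.18 (SE) on the log2 scale, 1.96-fold, with a limma adjusted p of 0.0273. Its second probe set gave 0.73 (adjusted p 0.0860).

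Scarb2, the membrane receptor that carries glucocerebrosidase to lysosomes, had a log2 difference of 0.76 ± 0.20 (SE) and missed the threshold (limma adjusted p 0.0762). Its signals were 1492.4, 1818.1 and 3348.1 in obese rats and 775.4, 1150.7 and 1617.9 in lean rats. Obese rats 7 and 8 lay just below the highest lean rat, number 1, and obese rat 6 was again far above the rest.

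Cd63, a tetraspanin of late endosomes and lysosomes, ran from 33602.4 over 44478.95 to 54935.5 in obese rats and from 24186.9 over 34317.5 to 37749.4 in lean rats. Obese rat 3 alone fell among the lean rats. The log2 difference of 0.44 had a limma adjusted p of 0.107.

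Lamp1 and Lamp2, heavily glycosylated proteins that make up much of the lysosomal membrane, did not pass. Lamp2 ran from 23835.2 over 28690.7 to 34500.3 in obese rats and from 21487.9 over 23007.5 to 30208.2 in lean rats (log2 difference 0.15, limma adjusted p 0.551). Lamp1 ran from 16320.2 over 19550.0 to 24423.9 and from 15636.1 over 19006.1 to 22490.8 (0.07, limma adjusted p 0.795). In both genes the groups overlapped over most of their range, and quantile normalization turned the sign of Lamp1 to -0.04. Laptm4a, a membrane protein related to Laptm5, stood at 0.09.

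Of the acid phosphatases and Pld3, only Pld3 passed, and the median log2 difference of the 3 genes was 0.10 in the 13 arrays and 0.09 in all 15. Pld3 is a lysosomal exonuclease that degrades single-stranded nucleic acids. Its lowest, median and highest signals were 1916.6, 2310.8 and 2857.6 in obese rats and 1213.0, 1345.0 and 2127.0 in lean rats. Lean rat 3 stood above the other lean rats and above obese rat 7, so the groups overlapped by 1 rat. Pld3 was higher by 0.60 ± 0.14 (SE) on the log2 scale, with a limma adjusted p of 0.0473.

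Acp2, the lysosomal acid phosphatase, ran from 2875.8 over 3186.35 to 3676.8 in obese rats and from 2661.1 over 3166.9 to 3424.4 in lean rats (log2 difference 0.07, limma adjusted p 0.735). Acp5, the tartrate-resistant acid phosphatase of osteoclasts and macrophages, ran from 2684.1 over 3690.6 to 5369.6 and from 2206.4 over 3955.2 to 5163.3 (0.10, limma adjusted p 0.833). The ranges of the groups lay over each other in both phosphatases.

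Whether the 9 genes passed depended on single rats and on settings. Leaving out a further rat from the 13 arrays left between 1 and 7 of them past limma's adjusted threshold: 1 without obese rat 7, obese rat 8, lean rat 5 or lean rat 6, 2 without lean rat 2, 3 without obese rat 6, 4 without obese rat 5 or lean rat 4, 5 without obese rat 2, lean rat 3 or lean rat 8, 6 without lean rat 1, and 7 without obese rat 3. Calls over all probe sets moved too, from 135 higher in the obese rats to between 32 (without obese rat 8) and 155 (without obese rat 3). The runs that kept 1 gene called 35 (without obese rat 7), 32 (obese rat 8), 37 (lean rat 5) and 33 (lean rat 6) probe sets higher. Plbd1 passed in all 13 of these runs, and Dpp7 in 0 of 13. One gene, Plbd1, passed when no probe set was filtered out, with 30 of 31042 probe sets higher, and 5 passed after quantile normalization, with 89 of 18625 higher. When arrays were centred on their medians, the median log2 difference of all probe sets went from -0.04 to 0.07. With it, 12 of the 36 genes passed, and over all probe sets the calls were 357 higher and 32 lower, against 135 higher and 54 lower without it. In 15 arrays the count rose from 0 to the same 9 genes when obese rat 1 alone was left out, and over all probe sets from 0 to 170 higher and 75 lower.

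The Gapdh 3′ to 5′ ratio, which rises as RNA is broken down, was lower on average in obese than in lean rats, with overlapping ranges. Its log2 was 0.72 ± 0.27 (SD, n = 6) in obese rats and 1.04 ± 0.28 (SD, n = 7) in lean rats, with an exact two-sided permutation p of 0.059 (0.327 after Benjamini-Hochberg adjustment over 11 array measures). With this ratio as a covariate in limma, 1 of the 36 genes passed, Dpp7, where 9 passed without it, and over all probe sets 10 passed higher in the obese rats where 135 did. The median log2 difference of the 36 genes was then 0.30 against 0.36, with 32 of them above 0. The part of RNA quality in the differences was not tested beyond this fit.

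**Figure D3:**
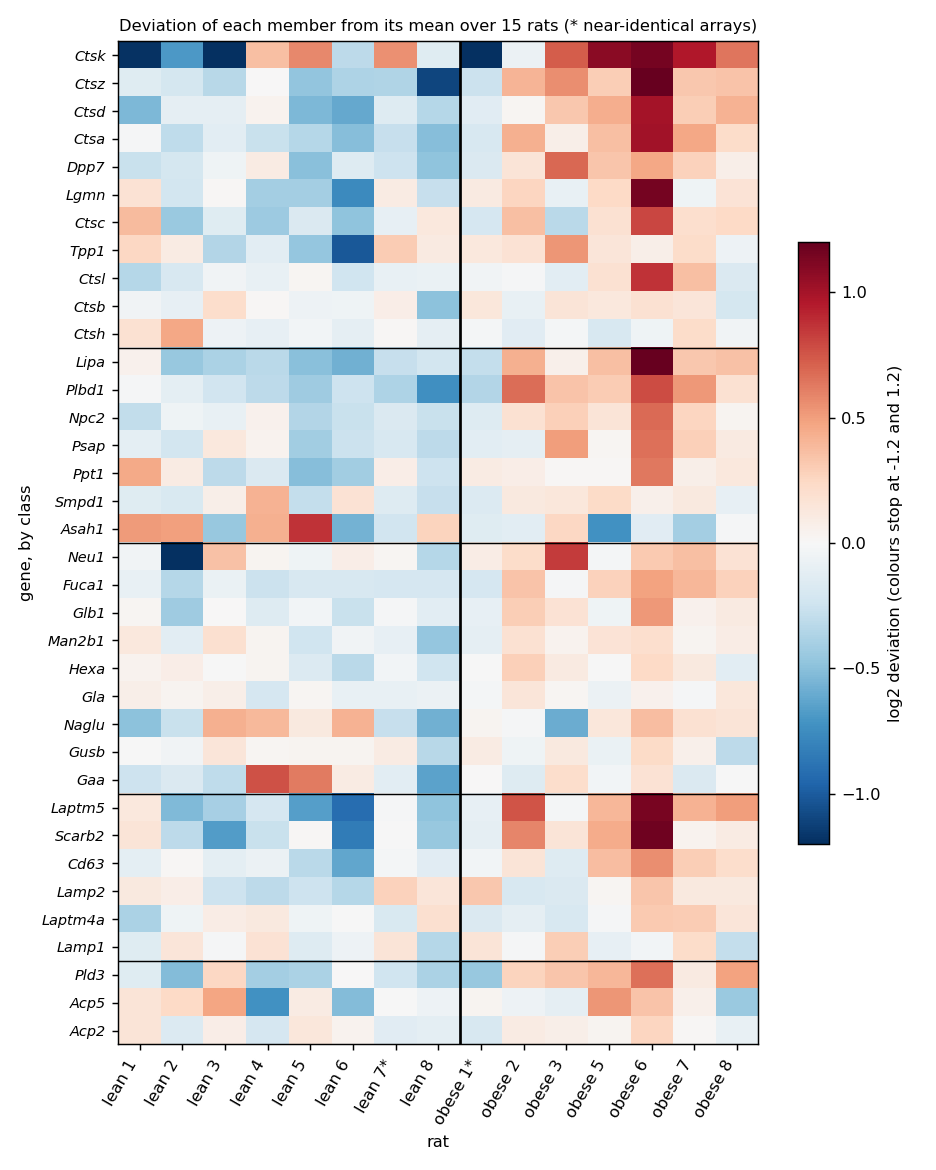
Log2 deviation of each of the 36 genes (vertical axis, by class) from its mean over the 15 rats, for each rat (horizontal axis), with the colour scale stopped at -1.2 and 1.2 and asterisks on the 2 near-identical arrays. Obese rat 6 is the reddest column, with the highest signal of the 13 rats in 23 of 36 genes, and lean rats 6 and 8 are the bluest.

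Rats differed in how many of the genes they carried high. Averaged over the 36 genes, the log2 deviation from the mean over 15 rats lay between 0.10 (obese rat 8) and 0.54 (obese rat 6) in the 6 obese rats. It lay between -0.29 (lean rat 6) and -0.05 (lean rat 1) in the 7 lean rats. Obese rat 1 and lean rat 7 stood at -0.13 and -0.07, both within the lean range. Obese rats had 27 to 35 of the 36 genes above the median of all 8 lean rats, and lean rats 7 to 26. These counts per rat, and those that follow, were not taken over all genes. Among the 13 rats obese rat 6 had the highest signal for 23 of the 36 genes, obese rat 3 for 4, obese rat 2 for 2 and obese rat 5 for 1. Lean rat 6 had the lowest signal for 10 genes and lean rat 8 for 8. By class the deviation of obese rat 6 was 0.72 for proteases, 0.59 for lipid enzymes, 0.58 for membrane proteins and 0.29 for sugar enzymes.

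Macrophage markers were higher in obese rats, as were the lysosomal genes. The markers were not screened for genes of lysosomal proteins, so they are no measure separate from the lysosome. All 20 of the 20 tested macrophage markers (26 were written down) had a log2 difference above 0 in the 13 arrays (46.7% of all genes), with a median of 0.61. Of these 5 passed limma's adjusted threshold (0.866% of all genes passed higher), namely Gpnmb (2.07), Cd68 (1.03), Lgals3 (0.90), Fcer1g (0.89) and Tyrobp (0.88). Csf1r, the receptor that defines the lineage, Adgre1, the F4/80 antigen, and Cd14 stood at 0.31, 0.24 and 0.13 without passing. Ms4a7 and Ncf1 were below the filter, and Msr1, Marco and Vsig4 had no probe set of their own. The summed signal of the 20 markers was 175181 to 378581 in obese rats and 110114 to 175354 in lean rats. Their mean log2 deviation was higher in obese rats by 0.66 (exact two-sided permutation p 0.00175, adjusted 0.0192 over 11 array measures) and by 0.56 with all 15 arrays (exact permutation p 0.00357, adjusted 0.0393). The markers were written down with earlier results of these arrays known, so these p values describe the list and are no independent evidence.

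The rat with the highest macrophage mean, obese rat 6 at 1.04, was also the one with the highest lysosomal mean. Obese rat 3 stood at -0.0027 for the macrophage markers and lean rat 1, the highest of the lean rats, at 0.14. In a piece of whole tissue, more cells of a type and more RNA per cell cannot be told apart. The part of macrophage number in the lysosomal differences was not tested.

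**Figure D4:**
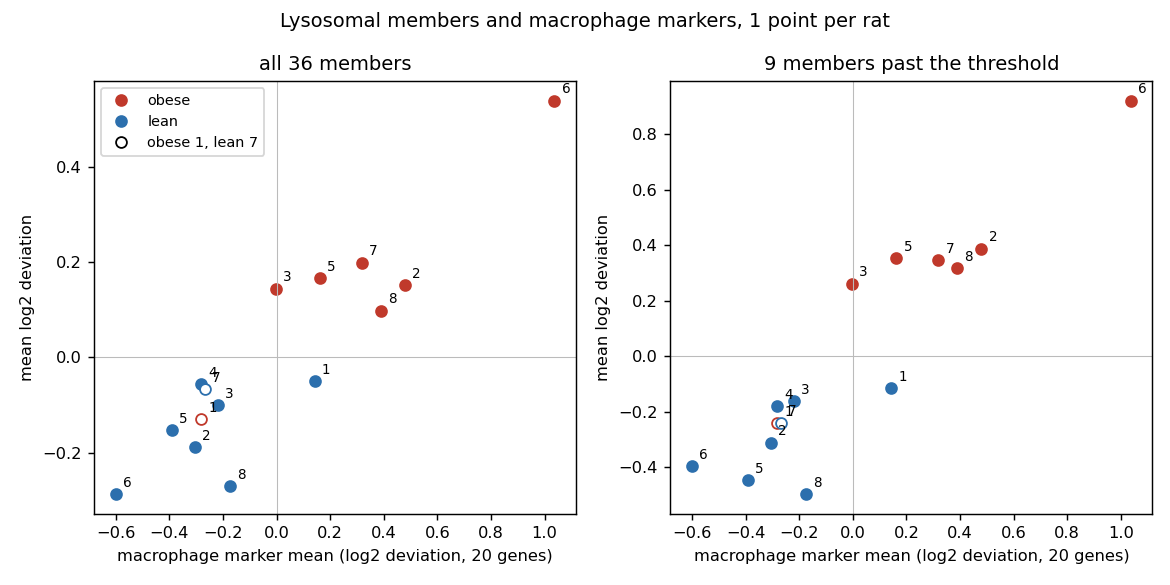
Mean log2 deviation of all 36 lysosomal genes (left) and of the 9 that passed (right) against that of 20 macrophage markers, 1 point per rat with its number, obese in red, lean in blue, open circles for obese rat 1 and lean rat 7. Obese rat 6 is at the top right with a macrophage mean of 1.04. The 9 genes on the right were chosen by their difference between the groups, and the markers were not screened for genes of lysosomal proteins. There obese rat 1, at -0.24, lies within the lean range of -0.50 to -0.12 on the vertical axis. Without the open circles the groups are apart on the vertical axis in both panels.

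Lists of markers of 9 other cell types were read in the same way in the 13 arrays. The mean log2 deviation, obese minus lean, was 0.35 for B cells (2 genes of opposite sign, Blnk 1.08 and Ms4a1 -0.38) and 0.09 for red blood cells (2 genes). For fat cell progenitors it was 0.03, for endothelium 0.02 and for the 10 adipocyte markers 0.01, among them the leptin gene Lep at 0.79 (limma adjusted p 0.0646). It was -0.26 for mast cells, -0.24 for mesothelium, -0.07 for T cells and -0.01 for epididymis epithelium. The last was read from 1 gene alone, Cst8, of 6 written down. The smallest exact permutation p among these 9 lists was 0.13. No neutrophil marker could be tested.

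Other probe sets of the same genes gave a mixed picture. There were 14 of them for 13 genes, and 11 passed the filter. Of these 11, 7 had the sign of the brightest probe set in the 13 arrays and 4 had the opposite sign, those of Asah1, Lamp1 (-0.24), Lamp2 (-0.02) and Lgmn (-0.30). None passed limma's adjusted threshold, and the smallest adjusted p values were those of Laptm5 (given above) and Ctsc (0.0937, log2 difference 0.64). Averaging all probe sets of a gene lowered Plbd1 to 0.40 and Pld3 to 0.18 on the log2 scale, and neither then passed.

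Other genes of the lysosome served to set the 36 in their pathway. These are genes left off a list drawn up with the results known, so a gap between them and the 36 is no independent evidence. Of 89 further genes written down, 70 could be tested, and none passed limma's adjusted threshold in either comparison. At an unadjusted p under 0.05 in limma, 13 of the 70 were higher in obese rats in the 13 arrays and 11 in all 15. The shares over all genes were 8.54% and 7.75%. The median log2 difference of the 70 was 0.09 in the 13 arrays and 0.06 in all 15. In both, 46 of 70 were above 0, against 46.7% of all genes with 13 arrays and 46.9% with 15.

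Gm2a, the activator protein that lifts ganglioside for beta-hexosaminidase, had the smallest limma p among other lipid enzymes and activators. Its signals ran from 33742.9 over 41632.1 to 58605.2 in obese rats and from 21205.4 over 28481.9 to 33085.5 in lean rats. The groups did not overlap, yet the log2 difference of 0.62 missed the threshold (limma adjusted p 0.0589). Grn, the progranulin gene, led the nucleases, reductases and regulators. It ran from 19058.0 over 21519.45 to 27644.3 in obese rats and from 12189.6 over 15722.6 to 17895.7 in lean rats, also without overlap (log2 difference 0.51, limma adjusted p 0.0623). Those were the 2 of 70 genes whose groups were apart, which held for 1.15% of all genes.

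Lyz2, the macrophage lysozyme, stood at 0.49 (limma adjusted p 0.110), M6pr, the cation-dependent mannose 6-phosphate receptor, at 0.39 (0.144) and Litaf, a membrane protein of late endosomes, at 0.32 (0.159). For Cpq, a carboxypeptidase and the first of the other proteases by p, the log2 difference was -0.10 (0.605), and median centring turned it to 0.01. By list, the median log2 difference in the 13 arrays was 0.36 for 10 nucleases, reductases and regulators, 0.15 for 14 membrane proteins and transporters, 0.10 for 8 lipid enzymes and activators, 0.06 for 12 sugar and sulfate enzymes, 0.04 for 19 sorting and biogenesis genes and -0.03 for 7 proteases and peptidases.

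The 3 transcription factors of lysosome biogenesis showed log2 differences of -0.05 (Tfeb), 0.04 (Tfe3) and 0.17 (Mitf) in the 13 arrays, and none passed.  CACGTG lay in the promoters of 2 of 9 genes that passed (22.2%, Ctsd and Plbd1) and of 4 of 22 that did not (18.2%). It lay in 17 of 69 promoters of the other lysosomal genes (24.6%) and in 0 of 19 of the macrophage markers. Lamp1, with its 5 E-boxes shown above, had a log2 difference of 0.07, and Ctsd, with 2, had 0.73.

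**Figure D5:**
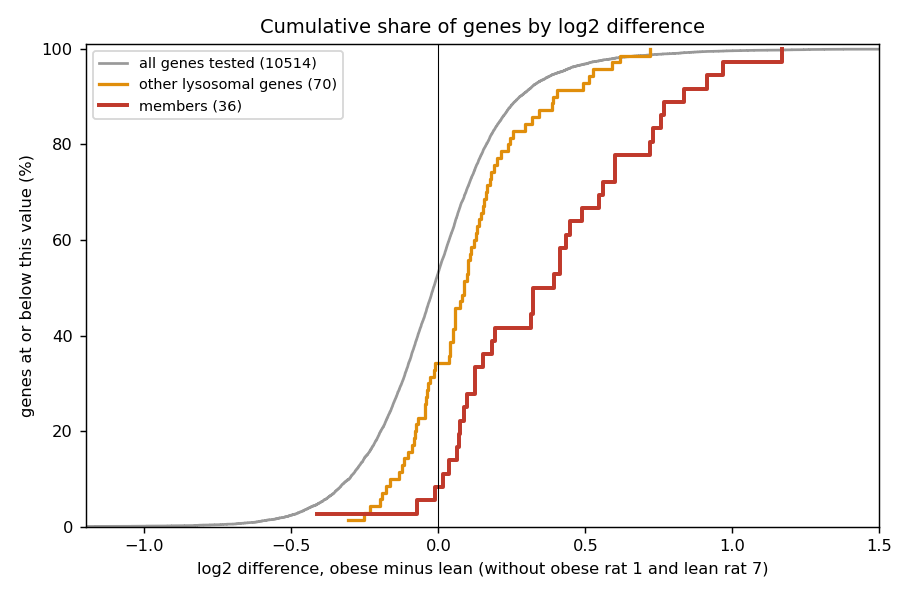
Cumulative share of genes, in percent, at or below each log2 difference (obese minus lean, 13 arrays), in grey for all 10514 genes tested, in orange for 70 other lysosomal genes and in red for the 36 lysosomal genes of the list. The red curve lies to the right with a median of 0.36, the orange one near 0.09 and the grey one near -0.02. The 36 were listed with the results known and the 70 are lysosomal genes off that list, so the gap describes the lists only.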

How the data were processed

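Per the submitters' processing notes, the authors made the signals with MAS5, and the deposited value table holds one intensity per probe set and array, on a linear scale. The mean signal of each array without its highest and lowest 2 percent was 1500.34 to 1500.42, so arrays had been scaled alike. In the platform annotation 20826 probe sets name 1 gene, 436 several and 9780 none, with 57 control probe sets left out.

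Here log2(signal + 79.9) was taken, the offset being the 10th percentile of all signals, probe sets with a mean above the 40th percentile were kept (18625), and the 2 groups were fitted in limma 3.58.1 (R 4.3.3) with Benjamini-Hochberg adjustment at a threshold of 0.05. The test was also run on simulated data with noise drawn independently for each probe set and array. Such data hold no near-identical arrays and no difference in RNA quality, so that run says nothing about either. Values over rats were given for up to 4 genes a class with the smallest p and the 1 with the lowest log2 difference. Members and lists were chosen with earlier results of these data known. Each array is 1 rat, and the number of arrays limits the precision. Arrays measure relative levels, so no level was compared between genes.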

Additional observations from a re-analysis of the deposited data

Results flagged for a closer look

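Of 116 groups of values checked for 1 rat far from the others (29 genes, each group with 15 and with 13 arrays), 9 had one by Dixon's ratio of gap to range, and chance gives about 1 in 20. Obese rat 6 stood above the other obese rats for Lipa (15875.7 against 4785 to 7869, ratio 0.5866 with 15 arrays, and 0.7324 with 13), for Ctsz (7054.2 against 3486.6 to 4205.5, ratio 0.7351 with 13 arrays) and for M6pr (18568.7 against 10600.7 to 13109.1, ratio 0.6215 with 15 arrays, and 0.6894 with 13). Lean rat 2 lay below the other lean rats for Neu1 (141.8 against 633.5 to 1077.7, ratio 0.7071 with 15 and with 13 arrays). Lean rat 8 lay below them for Ctsz (1275.1 against 2011.8 to 2839.3, ratio 0.5657 with 15 arrays). Obese rat 7 had the highest Ctsh signal (25409.1 against 19138.3 to 21546.2, ratio 0.582 with 15 arrays).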

How the results depend on the processing

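The median log2 difference of the 36 genes stayed between 0.22 and 0.40 with 15 arrays and between 0.28 and 0.47 with 13 arrays over all settings and left-out rats tried. The macrophage marker mean kept its direction with other offsets, median centring, quantile normalization and each left-out rat. Its exact permutation p stayed under 0.05 in these runs before any adjustment over the array measures. The adjusted p was not computed for them. With 15 arrays the count of 0 became 2 (Ctsa and Laptm5) with the filter at the 60th percentile, and leaving out 1 rat gave 0 to 9. Over all probe sets these runs called 34 of 12417 and 0 to 170 of 18625 higher in obese rats. With 13 arrays the count of 9 became 1 without a filter, 5 with quantile normalization, 0 with the replicate number as a block and 1 with the Gapdh ratio in the model, and leaving out 1 rat gave 1 to 7. Over all probe sets the calls higher in obese rats went from 135 to 30, 89, 3 and 10 in these settings. With 1 rat left out they were 32 to 155. The labels share rat numbers between groups without saying that they pair rats, so the block was not read as pairing. Deviations of same-numbered rats from their group means correlated at -0.12 to 0.24. The most alike lean rat had the same number for obese rat 8 with 15 and 13 arrays and for obese rat 5 with 13 arrays, and otherwise another number. Why these counts moved was not tested, except that no filter means more probe sets to adjust over.

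Signs turned for genes near 0 and for Man2b1. With 15 arrays, median centring gave Ctsh 0.0363 and Cpq 0.0121. Quantile normalization gave Gaa -0.0309, Lamp1 -0.0371, Gusb -0.0246 and Laptm4a -0.0118. Array weights gave Gaa -0.0159 and Gusb -0.0308, the Gapdh ratio Laptm4a -0.0121, and the replicate block Acp5 -0.00639. The mean over probe sets gave Gaa -0.0389, Lamp1 -0.0232 and Man2b1 -0.0787. Leaving out 1 rat gave -0.0856 to 0.116 for Gaa, -0.00639 to 0.174 for Acp5, -0.0323 to 0.0691 for Gusb and -0.00770 to 0.175 for Naglu.

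With 13 arrays, median centring gave Ctsh 0.0450, Gaa 0.104 and Cpq 0.0124. Quantile normalization gave Lamp1 -0.0418, Gusb -0.0303 and Laptm4a -0.00908, and array weights gave Gusb -0.0396. The replicate block gave Gaa 0.120, Naglu -0.0137 and Laptm4a -0.00504. The Gapdh ratio in the model gave Gaa 0.227, Lamp2 -0.00998 and Laptm4a -0.000293. The mean over probe sets gave Lamp1 -0.0734 and Man2b1 -0.101. Leaving out 1 rat gave -0.122 to 0.000302 for Ctsh, -0.122 to 0.114 for Gaa, -0.0141 to 0.199 for Acp5, -0.0382 to 0.0764 for Gusb and -0.0602 to 0.162 for Naglu. The cause was not tested.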
